A study of Mus musculus with 6 samples.

Results

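Adrenomedullin and vasoactive intestinal peptide (VIP) are secreted peptides that act on G protein-coupled receptors. The adrenomedullin receptor is built from a pair of proteins, the seven-pass receptor encoded by *Calcrl* and a single-pass partner from the Ramp family that carries it to the cell surface and sets which ligand it prefers. With RAMP1 the pair is the receptor for calcitonin gene-related peptide (CGRP), and with RAMP2 or RAMP3 it responds to adrenomedullin. The pair formed with RAMP2 is needed in mice for blood and lymphatic vessels to form and to hold fluid. VIP binds the receptors encoded by *Vipr1* and *Vipr2*, which it shares with the related peptide PACAP, and both systems raise cyclic AMP through the G protein Gs. The 7 genes described here are *Adm*, which encodes adrenomedullin, together with *Calcrl*, *Ramp1*, *Ramp2*, *Ramp3*, *Vipr1* and *Vipr2*. They were selected by gene symbol among the 55416 genes of the count table, and each symbol was found on 1 entry.

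The libraries came from membrane GFP-positive (mGFP+) cells sorted from the ventricles of mouse hearts at E15.5. The ControlΔEC embryos were Pdgfb-CreERT2/+; *Wt1* +/+; R26-mTmG/+ and the Wt1KOΔEC embryos were Pdgfb-CreERT2/+; *Wt1* LoxP/LoxP; R26-mTmG/+, with 3 libraries of each. Both groups therefore carried the inducible Cre recombinase and the mTmG reporter, and pregnant dams of both were gavaged with tamoxifen (75 mg/kg) over E11.5-E13.5, so the controls lack only the floxed *Wt1* alleles. Cre was driven by *Pdgfb*, so that the sort recovers recombined cells that expressed *Pdgfb*, and how many embryos went into a library is not given in the sources used here. Libraries held from 26037324 to 44779020 counts. Levels are given as CPM, counts scaled to a common library total. A count of 0 allows a level of up to 3 counts, or 0.0608 to 0.119 CPM depending on the library, for counting error only. In bulk samples such as these, fewer cells of a type and less RNA per cell cannot be told apart.

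*Wt1*, the targeted gene, had 6489, 5404 and 4287 counts in ControlΔEC and 547, 655 and 538 counts in Wt1KOΔEC, a log2 fold change of -2.91 ± 0.22 (SE). The summed level of 7 endothelial markers overlapped between genotypes, at 4569 to 5818 CPM in ControlΔEC and 4826 to 5524 CPM in Wt1KOΔEC. Other features of the libraries did differ by genotype without overlap. Ribosomal *Rn18s* took 13.2% to 15.3% of counts in ControlΔEC and 21.1% to 26.5% in Wt1KOΔEC. Mitochondrially encoded genes took 5.21% to 6.61% in ControlΔEC and 1.68% to 4.57% in Wt1KOΔEC. The summed levels of lymphatic endothelial, endocardial, epicardial and fibroblast markers were higher, and those of mural cell and macrophage markers lower, in all Wt1KOΔEC libraries. Single markers did not all follow their sums. Without overlap, 2 of 5 lymphatic endothelial, 2 of 5 endocardial, 3 of 8 epicardial and 4 of 6 fibroblast markers were higher. Also without overlap, 4 of 8 mural cell markers tested and 2 of 6 macrophage markers were lower. The part of these differences in the results that follow was not tested.

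Upstream sequences are shown first for 3 genes whose values the comparison turns on, the ligand gene *Adm*, the shared receptor gene *Calcrl*, and *Vipr2*, which had no counts in ControlΔEC. They are RefSeq sequences (table build GRCm38.p6), written 5′ to 3′ on the strand of the gene, which end just before the most upstream transcript start in GENCODE vM39, and their positions are exact matches on GRCm39. The 250 bases before each RefSeq start were searched on both strands for the hypoxia response element cores ACGTG and GCGTG, the cyclic AMP response element TGACGTCA, and the WT1 and EGR type sites GCGGGGGCG and GCGTGGGNG. Capitals mark GCGTG, which reads CACGC on the strand printed when it lies on the opposite strand. The stretches are chr7:110226614-110226857 (plus strand) for *Adm*, chr2:84255756-84255860 (minus strand) for *Calcrl* and chr12:116041096-116041345 (plus strand) for *Vipr2*.
Adm: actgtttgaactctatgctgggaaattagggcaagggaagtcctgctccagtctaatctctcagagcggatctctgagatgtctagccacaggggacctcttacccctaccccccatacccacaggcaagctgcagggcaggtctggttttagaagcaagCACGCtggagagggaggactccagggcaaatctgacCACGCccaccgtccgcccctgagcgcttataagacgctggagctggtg
Calcrl: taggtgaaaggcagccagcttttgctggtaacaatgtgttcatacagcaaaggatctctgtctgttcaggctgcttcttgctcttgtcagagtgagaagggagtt
Vipr2: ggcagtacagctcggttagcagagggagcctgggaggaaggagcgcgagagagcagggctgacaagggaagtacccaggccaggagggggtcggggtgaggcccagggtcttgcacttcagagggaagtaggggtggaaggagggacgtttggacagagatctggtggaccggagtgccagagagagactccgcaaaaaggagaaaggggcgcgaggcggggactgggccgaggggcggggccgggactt

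*Adm* held 2 matches to GCGTG in its window, a motif found in 28.2% of the 32851 promoter windows of the same length. *Ramp3* also held 2 matches and *Vipr1* held 1, and the windows of *Calcrl*, *Ramp1* and *Vipr2* held none. ACGTG (16.6% of windows), TGACGTCA (1.55%), GCGGGGGCG (2.57%) and GCGTGGGNG (1.65%) were not found in the windows of these 6 genes. The windows of *Vipr1*, *Vipr2* and *Ramp3* were rich in G and C, at 72.8%, 65.2% and 65.2%, against 48.4% for *Calcrl*. A match is a stretch of letters and does not show that a factor binds there.

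The 4 genes of the adrenomedullin system that were well above the detection floor in every library were *Ramp2*, *Calcrl*, *Adm* and *Ramp3*. *Ramp1*, *Vipr1* and, in ControlΔEC, *Vipr2* were at or near it. To compare levels between genes, CPM was divided by exonic length, since a longer transcript gives more reads. On that scale *Ramp2* was highest in ControlΔEC, at 48.98 ± 9.73 CPM per kb (SD, n = 3), and ranked 522 of 54749 genes with a length. *Adm* (17.03 ± 2.17 CPM per kb), *Calcrl* (14.2 ± 4.43) and *Ramp3* (12.0 ± 3.65) followed. Their spreads between libraries overlapped, but in each ControlΔEC library *Adm* was above *Calcrl* and *Calcrl* above *Ramp3*. In Wt1KOΔEC the order was *Ramp2* at 74.6 ± 5.72 CPM per kb, *Calcrl* at 24.6 ± 4.75, *Adm* at 15.1 ± 3.87 and *Ramp3* at 14.3 ± 2.98. Within each Wt1KOΔEC library *Calcrl* was above *Adm*, at 19.5, 25.6 and 28.8 against 12.1, 13.7 and 19.5 CPM per kb. *Adm* and *Ramp3* were within their spread, and their order differed between Wt1KOΔEC libraries. *Ramp2* stood above the other members in each of the 6 libraries.

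**Figure D1:**
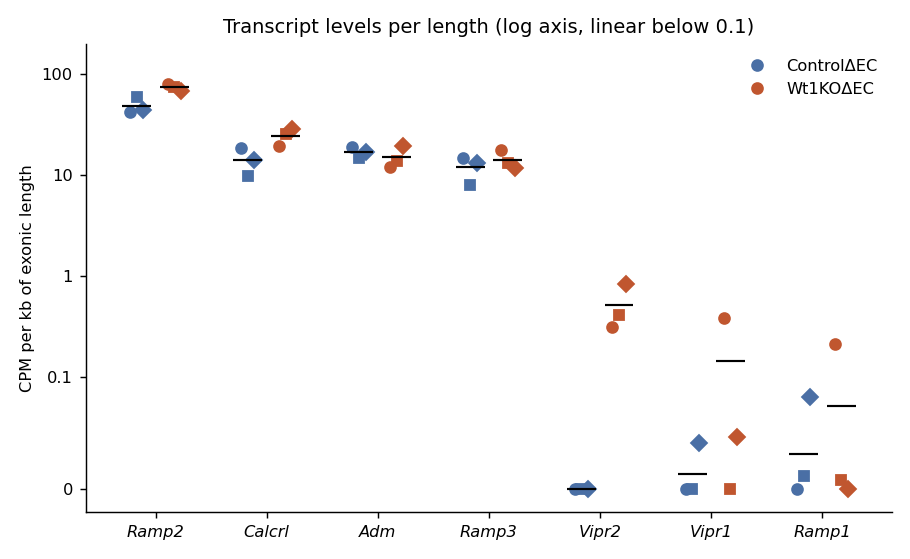
Levels of the 7 genes in CPM per kb of exonic length, on a log axis that is linear below 0.1. Points are libraries (circle, square and diamond for replicates 1, 2 and 3), horizontal bars are means of 3 libraries, and colours mark the genotype. *Ramp2* lies above *Calcrl*, *Adm* and *Ramp3* in every library, while *Vipr2* is at 0 in all ControlΔEC libraries.

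The ligand gene *Adm* did not separate the genotypes. *Adm* (ENSMUSG00000030790, GRCm39 chr7:110226858-110229027) was at 31.4, 24.3 and 27.6 CPM in ControlΔEC and 19.8, 22.3 and 31.8 CPM in Wt1KOΔEC. The groups overlapped, with the highest value of all in a Wt1KOΔEC library. The log2 fold change of Wt1KOΔEC over ControlΔEC was -0.17 ± 0.25 (SE), with an adjusted p of 0.856 in edgeR's quasi-likelihood test. It lay between -0.40 and -0.04 when each library was left out in turn.

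*Calcrl*, which encodes the receptor subunit common to adrenomedullin and CGRP signalling, was higher in all Wt1KOΔEC libraries, but its difference did not pass the adjusted threshold. *Calcrl* (ENSMUSG00000059588, chr2:84160957-84255755) was at 91.5, 48.1 and 69.6 CPM in ControlΔEC and 95.3, 125 and 141 CPM in Wt1KOΔEC. The groups did not overlap, although the gap between the highest control and the lowest Wt1KOΔEC library was small. The log2 fold change was 0.79 ± 0.25 (SE), with an unadjusted p of 0.0114 and an adjusted p of 0.252 by edgeR. It ran from 0.58 without ControlΔEC replicate 2 to 1.04 without ControlΔEC replicate 1. *Calcrl* lies on the same chromosome as *Wt1*, 20.7 *Mb* away.

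*Ramp2*, the partner that gives *Calcrl* its affinity for adrenomedullin, was the other adrenomedullin receptor gene with no overlap. *Ramp2* (ENSMUSG00000001240, chr11:101136358-101150419) was at 169.5, 239 and 175 CPM in ControlΔEC and 317, 299.7 and 272 CPM in Wt1KOΔEC. Every Wt1KOΔEC library lay above every control, with ControlΔEC replicate 2 the closest. The log2 fold change was 0.61 ± 0.18 (SE), with an unadjusted p of 0.00726 and an adjusted p of 0.225 by edgeR, so it was not called. DESeq2, the tool the study used, gave 0.60 with an adjusted p of 0.0253, which passes. *Ramp2* overlaps *Vps25* on the same strand in the annotation, so reads in shared sequence could be divided between them. *Vps25* itself had a log2 fold change of 0.17 ± 0.15 (SE) and an adjusted p of 0.717 by edgeR.

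*Ramp3*, the alternative adrenomedullin partner, overlapped between genotypes. *Ramp3* (ENSMUSG00000041046, chr11:6608511-6627475) was at 20.8, 11.04 and 18.3 CPM in ControlΔEC and 24.5, 18.4 and 16.6 CPM in Wt1KOΔEC. ControlΔEC replicate 2 was the low library. The log2 fold change was 0.25 ± 0.30 (SE), with an adjusted p of 0.821 by edgeR, and it fell to 0.02 without that library. *Ramp1*, the CGRP partner, had 0, 2 and 8 counts in ControlΔEC and 28, 1 and 0 counts in Wt1KOΔEC (ENSMUSG00000034353, chr1:91107540-91152918). It had too few counts to be tested, and 1 Wt1KOΔEC library held most of them.

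**Figure D2:**
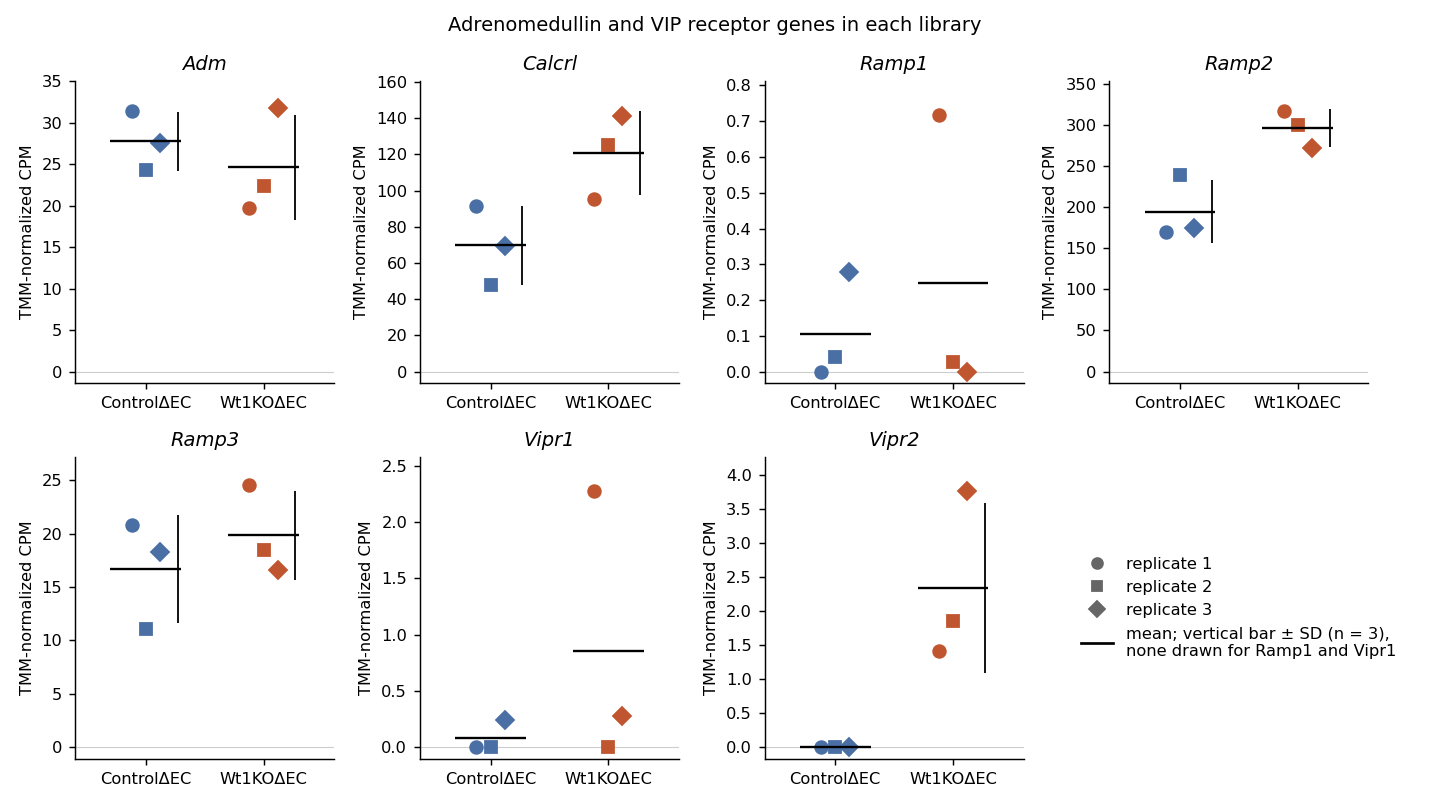
TMM-normalized CPM of each of the 7 genes in each library, with 1 panel per gene, the genotype on the horizontal axis and symbols for replicates 1 to 3. Horizontal lines are means and vertical bars the SD of 3 libraries (not drawn for *Ramp1* and *Vipr1*). The genotypes do not overlap for *Calcrl*, *Ramp2* and *Vipr2*, and they overlap for *Adm*, *Ramp3*, *Ramp1* and *Vipr1*.

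The make-up of the receptor within a library was compared as ratios, which do not depend on how libraries were scaled. *Ramp2* made up 74.0%, 88.3% and 76.9% of the summed Ramp level per kb in ControlΔEC and 81.7%, 85.0% and 85.2% in Wt1KOΔEC. The groups overlapped, and the difference of 4.23 percentage points had a two-sided exact permutation p of 0.4, where 3 against 3 libraries cannot go below 0.1. The log2 ratio of *Ramp2* to *Calcrl* per kb was 1.19, 2.62 and 1.63 in ControlΔEC and 2.04, 1.56 and 1.25 in Wt1KOΔEC. The mean difference of -0.20 (exact permutation p of 0.7) turned to 0.20 without ControlΔEC replicate 2, the library in which *Ramp2* was high and *Calcrl* low. Since no difference could have passed 0.05 in this design, these p-values do not show that the balance was stable. In each library *Ramp2* exceeded *Calcrl*, by 2.29 to 6.13 times per kb of exonic length. The length used sets the size of this ratio, and with canonical transcript lengths, an alternative chosen after seeing the data, the log2 ratio ran from 2.12 to 3.54 over the 6 libraries, against 1.19 to 2.62 with exonic lengths.

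*Vipr2*, the second VIP and PACAP receptor gene, was counted in Wt1KOΔEC libraries only. *Vipr2* (ENSMUSG00000011171, chr12:116041346-116109883) had 0 counts in each of the 3 ControlΔEC libraries and 55, 66 and 95 counts in Wt1KOΔEC, or 1.41, 1.85 and 3.76 CPM. Against the level that 3 counts per library make in ControlΔEC, its mean in Wt1KOΔEC was at least 30.3-fold higher, and at least 21.1-fold higher without Wt1KOΔEC replicate 3. In absolute terms the level stayed low, and *Vipr2* ranked 11455 of 54749 genes per kb in Wt1KOΔEC. The unadjusted p was 0.000741 and the adjusted p 0.114 by edgeR. With no filter on low counts edgeR gave an adjusted p of 0.0158, and DESeq2 gave 3.06e-05, so the call depends on the tool and the filter. Of the 6 neural and Schwann markers checked, 4 were under 0.5 CPM in every library. The summed level of these markers overlapped between genotypes, at 0.970 to 2.33 CPM in ControlΔEC and 0.614 to 7.16 CPM in Wt1KOΔEC. The mural cell marker sum was lower where *Vipr2* was counted, at 326 to 382 CPM in Wt1KOΔEC against 468 to 636 CPM in ControlΔEC. Higher with *Vipr2* and without overlap were the sums of epicardial markers (68.1 to 77.1 CPM against 37.1 to 51.5 CPM in ControlΔEC) and fibroblast markers (712 to 877 against 407 to 586 CPM). So were those of endocardial markers (577 to 711 against 263 to 348 CPM) and lymphatic endothelial markers (402 to 563 against 304 to 340 CPM). Of 5 endocardial markers 2 did not overlap, and of 5 lymphatic endothelial markers 2 did not. Of 8 epicardial markers 3 did not, and *Aldh1a2* (-0.05) and *Dmkn* (-0.34) had negative log2 fold changes. Of 6 fibroblast markers 4 did not, and *Postn* (-0.16) was negative. Of 8 mural cell markers tested 4 did not, and *Tagln* (0.92) was positive. *Plvap* had means of 68.1 CPM in ControlΔEC and 338 CPM in Wt1KOΔEC, while *Nfatc1* (184 and 219 CPM) overlapped. *Ccl21a* had means of 49.2 and 171 CPM, while *Flt4* (238 and 264 CPM) overlapped. The part of these markers' cell types in the *Vipr2* counts was not tested.

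*Vipr1*, which encodes the other VIP receptor, rested on 1 library. *Vipr1* (ENSMUSG00000032528, chr9:121471775-121502020) had 0, 0 and 7 counts in ControlΔEC and 89, 0 and 7 counts in Wt1KOΔEC, and it did not enter the test. The ratio of *Vipr1* to *Vipr2* is not given, since every ControlΔEC library was at 0 for *Vipr2* and 1 Wt1KOΔEC library at 0 for *Vipr1*. The same Wt1KOΔEC replicate 1 that held most of the *Vipr1* counts also held most of the *Ramp1* counts.

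Of the 7 genes, 5 could be tested (*Adm*, *Calcrl*, *Ramp2*, *Ramp3* and *Vipr2*), and 0 of them were called by edgeR at an adjusted p under 0.05 and a log2 fold change beyond 0.58, where 0.0736% of all genes tested (12 of 16296) were called. At an unadjusted p under 0.05, 3 of the 5 passed, all higher in Wt1KOΔEC, where 5.96% of all genes tested were higher and 7.12% lower. All 3 were also beyond 0.58 on the log2 scale, as were 10.1% of all genes at that p in either direction. The same 3 genes, *Calcrl*, *Ramp2* and *Vipr2*, did not overlap between genotypes, as did 10.4% of all genes tested in the higher direction and 8.95% in the lower. *Vipr2* passed the filter on low counts through its Wt1KOΔEC libraries alone, so its presence among the genes tested already required a difference. DESeq2 called 2 of the 5, *Ramp2* and *Vipr2*, both higher, where it called 3.68% of all genes tested and 1.66% as higher. The median log2 fold change of the 5 was 0.61, against -0.03 over all genes tested. *Vipr2* at its lower bound (4.92) could not move that median, since the bound also lies above it. The others were at -0.17 (*Adm*), 0.25 (*Ramp3*), 0.61 (*Ramp2*) and 0.79 (*Calcrl*). When libraries were scaled by their totals alone the median of all genes moved to -0.18, and *Calcrl* (0.66), *Ramp2* (0.45) and *Ramp3* (0.10) stayed positive and *Adm* (-0.31) negative.

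**Figure D3:**
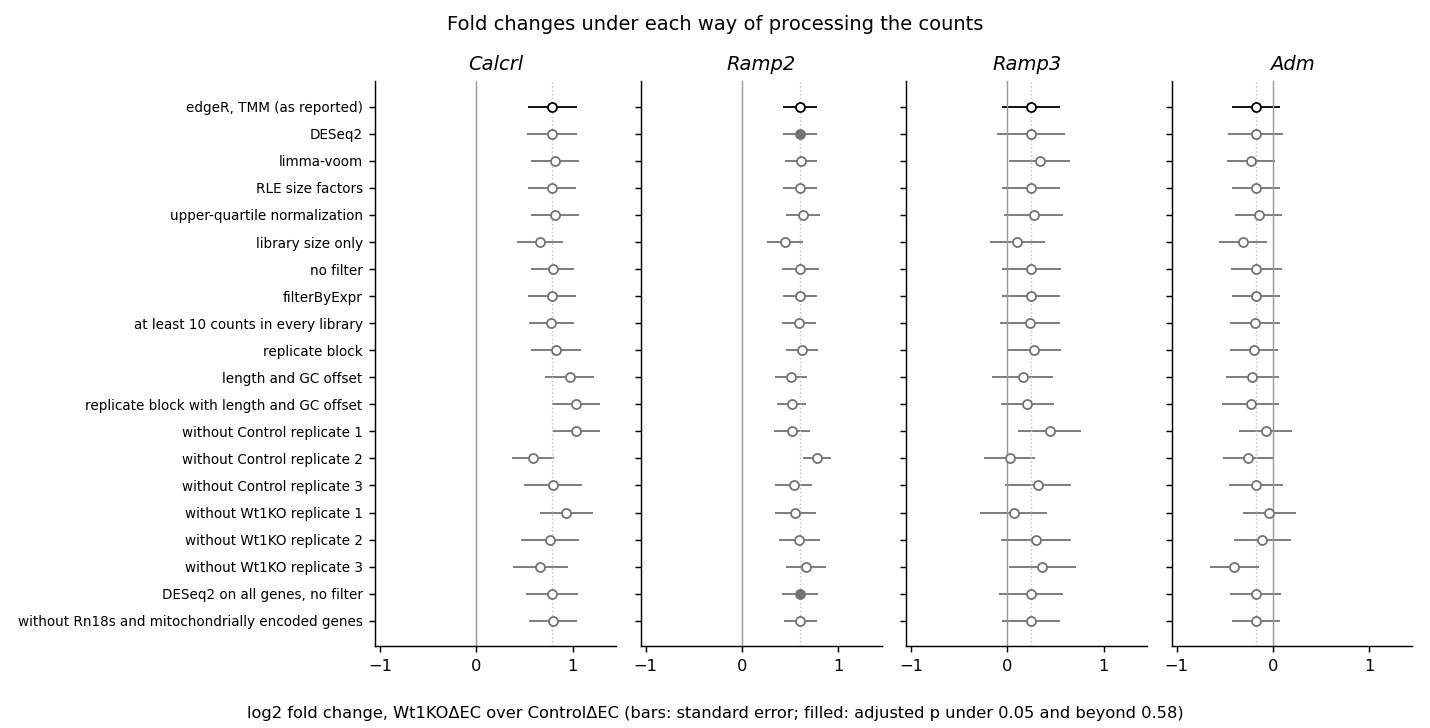
Log2 fold change of Wt1KOΔEC over ControlΔEC (horizontal axis) for *Calcrl*, *Ramp2*, *Ramp3* and *Adm* under each way of processing the counts (vertical axis). Bars are standard errors, and filled points are called. *Calcrl* and *Ramp2* stay above 0 throughout, from 0.58 to 1.04 and from 0.45 to 0.78, and only the 2 DESeq2 fits of *Ramp2* are called.

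The other ligands of these receptors were scarce in the sorted cells. Of 8 ligand genes, 3 were tested, and 0 passed the unadjusted threshold. *Vip* was at 1.97, 0.243 and 1.73 CPM in ControlΔEC and 0.614, 0.0561 and 0.0791 CPM in Wt1KOΔEC, a log2 fold change of -2.37 ± 1.48 (SE) and an adjusted p of 0.570 by edgeR. Its groups overlapped, as ControlΔEC replicate 2 was low. *Calca*, which encodes CGRP, had 26, 0 and 0 counts in ControlΔEC and 11, 3 and 1 counts in Wt1KOΔEC. *Adcyap1*, which encodes PACAP, had 41 counts in Wt1KOΔEC replicate 1 and 0 elsewhere, *Sct* had 5 counts or fewer in each library, and *Adm2*, *Calcb* and *Iapp* had none.

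Of 12 receptor genes, 8 could be tested, and all 8 had a positive log2 fold change, except that *Crcp* turned negative when libraries were scaled by their totals alone. Their median was 0.70. The lower bounds of *Vipr2* (4.92) and *Adcyap1r1* (3.48) could not move it, since both also lie above it. At an unadjusted p under 0.05, 5 passed, all higher in Wt1KOΔEC, where 5.96% of all genes tested were higher at that p. *Vipr2* and *Adcyap1r1* entered the test through their Wt1KOΔEC libraries alone and could only come out higher, so these counts and the median are a description. Besides *Calcrl*, *Ramp2* and *Vipr2* these were *Gpr182* and *Adcyap1r1*. *Gpr182*, an endothelial receptor once proposed to bind adrenomedullin, was at 34.7, 41.4 and 37.9 CPM in ControlΔEC and 95.8, 81.8 and 82.8 CPM in Wt1KOΔEC. Its log2 fold change of 1.19 ± 0.16 (SE) just missed the threshold with an adjusted p of 0.0511 by edgeR. *Adcyap1r1*, the PACAP receptor related to *Vipr1* and *Vipr2*, had 0 counts in ControlΔEC and 27, 0 and 48 counts in Wt1KOΔEC. Its mean was at least 11.2-fold higher, or at least 4.47-fold without Wt1KOΔEC replicate 3, and the libraries overlapped at 0. *Ackr3*, the scavenging receptor that takes up adrenomedullin, had a log2 fold change of 0.43 ± 0.30 (SE) and an adjusted p of 0.624, with groups that overlapped. *Crcp*, which couples the CGRP receptor to its signal, was at 0.08 ± 0.23 (SE) on the same log2 scale. *Calcr* and *Sctr* had no counts.

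Downstream of the receptors no list of signalling genes held a gene called by edgeR with the filter on low counts. Across the 92 genes of all these lists that are not members, 81 were tested and 0 were called by edgeR (6 by DESeq2), with 12 higher and 5 lower at an unadjusted p under 0.05. Gs and the adenylyl cyclases, which make cyclic AMP, had 8 of 11 genes tested and 0 at that threshold, and *Gnas*, the gene of Gs itself, was at -0.12 ± 0.20 (SE) on the log2 scale. Among 17 genes of protein kinase A, EPAC and CREB, which respond to cyclic AMP, 14 had negative log2 fold changes (median -0.19), and 12 with a length and GC offset. The unadjusted threshold was passed by 2, *Rap1b* at -1.07 and *Rapgef3*, the gene of EPAC1, at -0.41. Over all genes tested, 8474 of 16296 had negative log2 fold changes, and 7.12% were lower at that threshold. *Rap1b* overlapped between genotypes, while *Rapgef3* was lower in all Wt1KOΔEC libraries, at 80.2, 76.4 and 60.6 CPM against 101, 102 and 84.7 CPM. Of 11 phosphodiesterases tested, which break cyclic AMP down, 9 were negative (median -0.43) and 2 passed, *Pde8a* at -0.82 and *Pde4c* at -1.33. *Pde8a* overlapped between genotypes. *Pde4c* did not overlap but was low, at a mean of 5.45 CPM in ControlΔEC and 2.16 CPM in Wt1KOΔEC. The 9 desensitisation and trafficking genes, which end the signal at the receptor, held 0 at the unadjusted threshold.

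Genes that respond to cyclic AMP, and genes induced with *Adm* by hypoxia, were examined last. Of 8 cyclic AMP response genes, 2 were higher at an unadjusted p under 0.05, *Junb* at 0.78 ± 0.17 and *Fos* at 0.70 ± 0.16 (log2 fold change ± SE), and 1 was lower, *Nr4a2* at -0.59 ± 0.18. *Adm* is a textbook target of hypoxia-inducible factors, and 12 other hypoxia-induced genes were examined beside it. Of these, 11 were positive, with a median log2 fold change of 0.50 against -0.03 over all genes tested. The 1 negative gene, *Vegfa*, was at -0.80 ± 0.95 (log2 fold change ± SE). Its level was low, at means of 1.73 CPM in ControlΔEC and 0.99 CPM in Wt1KOΔEC, and its groups overlapped. The unadjusted threshold was passed as higher by 7 (5.96% of all genes tested did so). In the same direction 8 did not overlap (10.4% of all genes tested). The list was chosen with earlier results of these data known, so these counts are a description. With libraries scaled by their totals alone, or with a length and GC offset, 4 passed in place of 7, and *Ndrg1* turned negative under the former. *Ddit4* was at 1.61 ± 0.29, *Egln3* at 1.04 ± 0.33, *Pdk1* at 0.79 ± 0.21 and *Ldha* at 0.43 ± 0.14 (log2 fold change ± SE), and edgeR called 0 of the 12 with the filter on low counts. *Adm*, with its log2 fold change of -0.17, lay apart in direction from the median of that list, and whether it differs from it was not tested.

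**Figure D4:**
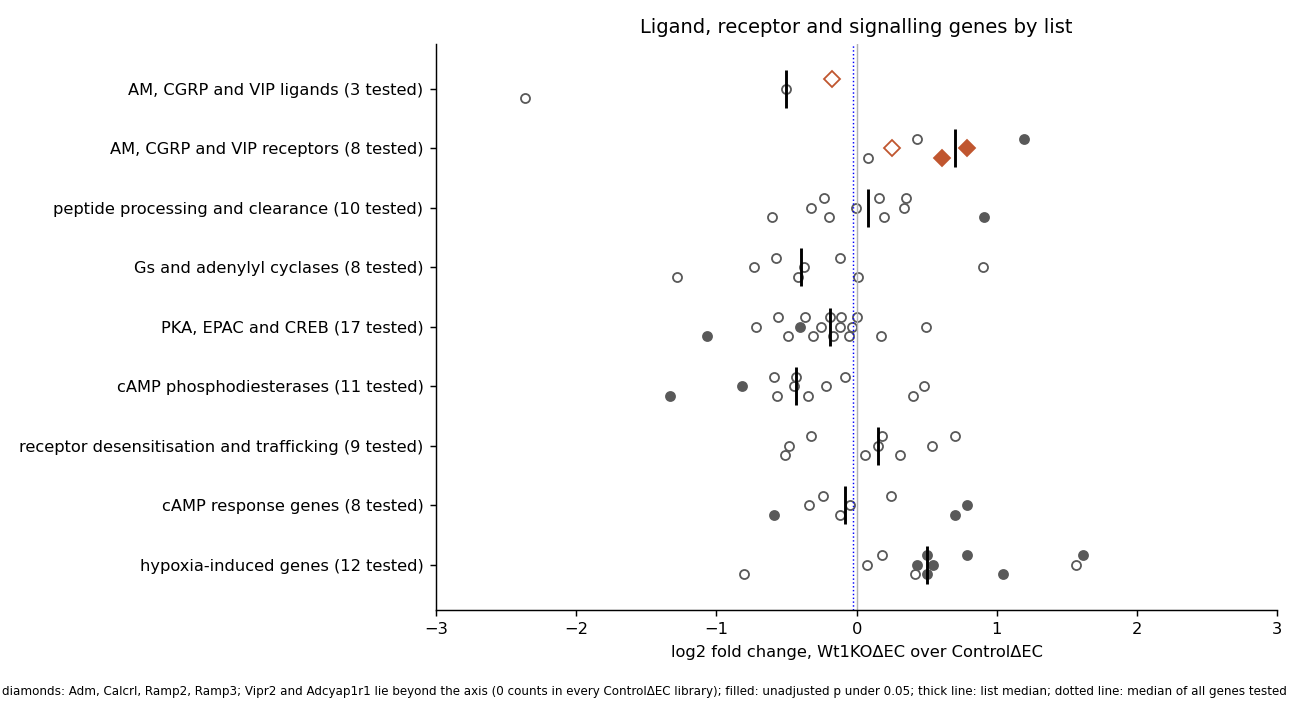
Log2 fold change of Wt1KOΔEC over ControlΔEC (horizontal axis) for tested genes of 9 ligand, receptor and signalling lists (vertical axis). Points are genes, diamonds are *Adm*, *Calcrl*, *Ramp2* and *Ramp3*, filled symbols have an unadjusted p under 0.05, thick bars are list medians and the dotted line is the median of all genes tested. *Vipr2* and *Adcyap1r1* lie beyond the axis, and the receptor genes all lie right of 0 (*Crcp* falls left of it when libraries are scaled by their totals alone).

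For each of the 4 genes detected throughout, the genes with the nearest profile over the 6 libraries were found among 10104 genes with a mean of at least 5 CPM, by the root mean square difference of log2 CPM after each gene's own mean was subtracted. Near to *Calcrl* were *Sertad1* (0.106) and *Ch25h* (0.113), and nearest to *Ramp2* were *Slc39a1* (0.0830), *Mrps6* (0.0880) and *Cpsf4* (0.0911). Nearest to *Adm* were *Lins1* (0.0386), *2410004B18Rik* (0.0521) and *Mis18a* (0.0635), and nearest to *Ramp3* were *Papss2* (0.0955), *Npr1* (0.0995) and *Cpq* (0.101). With so few libraries and so many genes, near profiles are a description of these values.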

How the data were processed

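RNA-Seq was performed on mGFP+ ECs of 3 ControlΔEC and 3 Wt1KOΔEC samples. The authors prepared SMART-seq2 libraries, which keep no strand and no molecular identifiers, aligned reads with STAR 2.7.8a and quantified genes with RSEM 1.3.0 on GENCODE vM27 (GRCm39 in the methods, GRCm38 in the labels). The values deposited by the authors are unnormalized RSEM expected counts, which are whole numbers in the table. Genotype came from the labels, and whether libraries were prepared in batches is not given in the sources used here.

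The test was edgeR 4.0.16 (R 4.3.3) with TMM scaling and the quasi-likelihood F test, on genes that reached 10 counts in 2 or more libraries. P-values were adjusted over all of these genes by Benjamini-Hochberg. A called gene had an adjusted p under 0.05 and moved by more than 0.58 on the log2 scale. Standard errors divide the fitted log2 change by the root of its F statistic. The procedure was tested on simulated data. CPM used TMM-scaled totals, and exonic lengths came from GENCODE vM39, matched by Ensembl ID. Permutation tests enumerated all 20 splits. DESeq2 1.42.0 and limma 3.58.1 were alternatives, with other normalizations, filters, a replicate block, a length and GC offset and each library left out. RefSeq promoter entries matched 6 of the 7 genes. The members, gene lists and markers were chosen with earlier results of these data known. All 7 members were named, with every detected ligand and receptor gene. From each other list, the 3 genes with the smallest p and the most abundant one, at a mean of at least 5 CPM, were eligible for naming. *Pde4c*, *Vegfa*, *Aldh1a2*, *Dmkn*, *Postn* and *Tagln* were named after their values were seen because they complete counts. For each member at that level, the 3 nearest profiles were eligible (prior count 2). Some genes that these rules select are not reported here.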

Additional observations from a re-analysis of the deposited data

How the results depend on the processing

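*Adm*, *Calcrl* and *Ramp3* kept their direction and stayed uncalled under all 19 alternatives. *Ramp2* kept its direction and was called at 0.60 (log2 fold change) by DESeq2, with or without the filter on low counts. *Vipr2* was called at 8.98 by DESeq2 with or without that filter and at 9.44 by edgeR without it. It could not be fitted with 10 counts required in every library. As *Vipr2* had 0 counts in ControlΔEC, the size of these values depends on the tool, and limma gave 7.33. Against 3 counts per ControlΔEC library its log2 fold change was at least 4.92. *Vipr2* passed the filter on low counts through its Wt1KOΔEC libraries alone. The log2 ratio of *Ramp2* to *Calcrl* ranged from -0.51 to 0.20 when 1 library was left out, and turned positive at 0.20 without ControlΔEC replicate 2. The *Ramp2* share difference ranged from 1.37 to 8.51 percentage points. The number of genes called was 599 by DESeq2, 759 by DESeq2 on all genes, 296 without the filter, 113 with 10 counts in every library, 6 with a length and GC offset, 1652 at an unadjusted p, and 2 to 37 when 1 library was left out (37 without ControlΔEC replicate 3). Members called numbered 2, 2, 1 and 3 by DESeq2, DESeq2 on all genes, no filter and an unadjusted p, and 0 when any library was left out. Signalling list genes called numbered 6, 7, 4, 2 and 12 by DESeq2, DESeq2 on all genes, no filter, 10 counts in every library and an unadjusted p, and 0 to 1 when 1 library was left out. The fits by DESeq2 on all genes, without *Rn18s* and mitochondrial genes, and with canonical transcript lengths were chosen after seeing the data.

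A pairing of libraries by replicate number was not shown. Same-numbered libraries had correlations of 0.0566, 0.0045 and 0.0201, and ControlΔEC replicates 2 and 3 did not correlate best with their own number. With 3 libraries per genotype these values cannot exclude a pairing. The paper describes a cross that gave both genotypes in the same litter, and the litters behind each library are not given in the sources used here. With the replicate block 5 genes were called, and 6 with the block and the length and GC offset, with 0 members among them. The cause of these changes was not tested. With 3 libraries per genotype, low counts limit *Ramp1*, *Vipr1* and *Vipr2*. The p-values of edgeR and DESeq2 draw on the spread between these libraries and on spread estimated across the genes tested.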
